A study of Mus musculus with 15 samples.

Results

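Fmo1, Fmo2, Fmo4 and Fmo5 encode flavin-containing monooxygenases, and their expression was examined by RNA sequencing of whole liver. The members were the genes that carry these 4 symbols, and all 4 were found among the 37991 gene identifiers of the count table. Livers came from 3 groups of 5 mice. Young WT mice were wild type for S6K1 (gene Rps6kb1) and 90 days old. Old WT mice were wild type and 600 days old. Old KO mice were 600 days old and carried the S6K1 KO. All mice were chow-fed females of the C57BL/6 strain, bred from heterozygous parents. The KO was present in every tissue from birth, and no young KO library was analysed here, so genotype was compared at 600 days alone.

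Flavin-containing monooxygenases sit in the membrane of the endoplasmic reticulum. They hold an FAD cofactor, take electrons from NADPH without a separate reductase, and insert an oxygen atom into soft nucleophilic nitrogen and sulfur centres of drugs, dietary amines and a few endogenous compounds. In this they complement the cytochrome P450 enzymes, which depend on P450 oxidoreductase. FMO1 acts on many drugs and also forms taurine from hypotaurine, FMO2 is best known as the main form of lung, FMO4 is little characterized, and FMO5 is unusual in carrying out Baeyer-Villiger oxidation of ketones. A flavin-containing monooxygenase of nematodes extends lifespan when overexpressed, which made the family of interest in studies of ageing.

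Fmo4 (ENSMUSG00000026692, 164724014 to 164744103), Fmo1 (ENSMUSG00000040181, 164759692 to 164796679) and Fmo2 (ENSMUSG00000040170, 164804448 to 164828857) lie next to each other on the minus strand of chromosome 1 in NCBIM37, the build also called mm9. The gap between Fmo4 and Fmo1 is 15588 bases and that between Fmo1 and Fmo2 is 7768 bases. Fmo5 (ENSMUSG00000028088) lies apart, on the plus strand of chromosome 3 from 97432727 to 97459205. All 4 are protein-coding, and no other annotated gene overlaps any of them. They are paralogs, and the 50-bp single-end reads could be shared between similar exons, so counts of single members carry that uncertainty.

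Upstream sequence is shown for Fmo4 and Fmo2, the chromosome 1 members in the promoter table used. It is the 100 bases before each annotated start, as given by RefSeq in GRCm38.p6, 5′ to 3′ on the minus strand. The window of Fmo5 was searched too but is not printed, since it ends in letters like those at the end of an intron and its start is in doubt. RefSeq gives 2 starts for Fmo2. Capitals mark matches to the nuclear receptor half-site AGGTCA or its reverse complement.
Fmo4, chr1:162812550-162812649: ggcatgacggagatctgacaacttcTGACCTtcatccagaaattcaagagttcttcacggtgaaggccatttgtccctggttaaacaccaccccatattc
Fmo2, first start, chr1:162898759-162898858: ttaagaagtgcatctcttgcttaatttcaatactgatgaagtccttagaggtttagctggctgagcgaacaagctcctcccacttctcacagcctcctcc
Fmo2, second start, chr1:162898494-162898593: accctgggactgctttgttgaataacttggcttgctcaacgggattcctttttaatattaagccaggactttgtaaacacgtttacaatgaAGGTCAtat

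Both strands were searched for 6 short motifs, none of which contains another. Among 32851 windows of the same length, 5.56% held the TATA box TATAAA, 18.9% held the CCAAT box (CCAAT) and 24.7% held the GC box GGGCGG. The STAT element TTCNNNGAA was held by 2.55%, the HNF1 half-site GTTAAT by 2.51% and the nuclear receptor half-site AGGTCA by 5.88%. The Fmo4 window and the window of the second Fmo2 start each held 1 match to AGGTCA and none to the other motifs. The window of the first Fmo2 start held none of the 6, nor did that of Fmo5 (46% GC). The GC content was 47% before Fmo4 and 46% and 39% before the first and second Fmo2 starts, against a median of 55% over all windows. A match is a run of letters, and binding was not measured.

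Libraries held 21801754 (young WT 6) to 38065359 (young WT 1) counts, and 14258 genes passed the filter on low counts. The deleted gene checked the genotype labels: Rps6kb1 was at 38.4 ± 4.21 CPM in old WT and 17.0 ± 2.23 CPM in old KO (SD, n = 5 each; CPM, counts scaled to a common library size of 1e6). Its young WT mean was 38.3 CPM, so it does not check the age labels. Rnft1 on the plus strand overlaps Rps6kb1, and the strand setting of the counting is not given. The source of the counts left in old KO was not tested. Hepatocyte genes were abundant, and the 5 markers Alb, Apoa1, Ttr, Cps1 and Serpina1a summed to between 73200 and 137000 CPM per library, whereas 5 adipocyte markers summed to at most 8.65 CPM. In old KO livers 4 of 6 macrophage markers were lower than in old WT (0.421% of all tested genes were lower and 0.112% higher). Their edgeR adjusted p ran from 0.0247 to 0.0484, and these calls were not followed in the alternative fits. The sum of the 6 markers was 104 to 152 CPM in old KO against 178 to 470 CPM in old WT. The part of this difference in the Fmo values was not tested. In bulk tissue, fewer cells of a type and less RNA per cell cannot be told apart.

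All 4 Fmo genes were well expressed and passed the filter, with 292 to 28642 counts in a library, so counting error was small beside the spread between mice. By CPM, Fmo5 ranked 177 and Fmo1 312 among the 14258 genes, while Fmo2 ranked 1834 and Fmo4 6165. Levels of different genes were compared per kilobase of annotated exon. On that scale the means over 15 libraries were 117 CPM per kb for Fmo5, 86.0 for Fmo1, 13.1 for Fmo2 and 5.41 for Fmo4. Among the 4 members the RNA was thus mostly that of Fmo5 and Fmo1. Fmo5 and Fmo1 were close neighbours in this order, and Fmo5 was the higher in 13 of 15 libraries, the exceptions being young WT 4 and young WT 6. Fmo1 exceeded Fmo2 in 15 of 15 libraries, by 4.11 to 12.7 times, and Fmo2 exceeded Fmo4 in 15 of 15, by 1.25 to 3.14 times. The order was the same in the group means, where the young WT values of Fmo5 and Fmo1 (109 ± 24.8 and 89.1 ± 5.89 CPM per kb, SD, n = 5) lay within 1 SD of Fmo5.

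**Figure D1:**
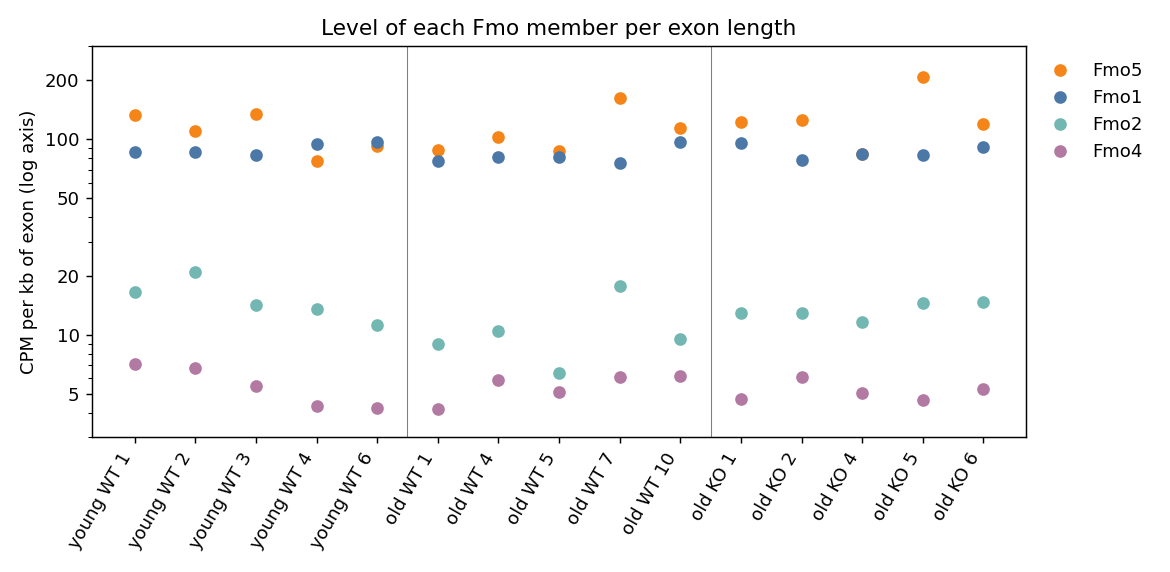
Level of Fmo5, Fmo1, Fmo2 and Fmo4 in CPM per kb of annotated exon (log axis) in each of the 15 libraries, ordered by group; each point is 1 library. Fmo5 and Fmo1 sit near 100 CPM per kb and exchange order in young WT 4 and 6, with Fmo2 and Fmo4 below them in every library.

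No group difference of a member passed the threshold. None of the 4 members passed an adjusted p of 0.05 in edgeR's quasi-likelihood test with age (old WT against young WT), where 18.8% of tested genes passed (9.92% higher and 8.91% lower). None passed with genotype (old KO against old WT), where 0.533% of genes passed, or between old KO and young WT, where 23.3% passed (12.0% higher and 11.3% lower). A count of 0 of 4 is not far from these background shares. At an unadjusted p under 0.05, 1 member (Fmo2) was past the threshold with age and none in the other comparisons, where 33.0%, 11.6% and 36.8% of tested genes were past it with age, with genotype and between old KO and young WT. DESeq2 and limma voom called no member in any comparison. The ranges of the groups overlapped for all 4 members in all 3 comparisons, whereas 11.4%, 3.20% and 13.9% of tested genes had ranges that did not overlap with age, with genotype and between old KO and young WT. The old WT libraries enter both the age and the genotype comparison.

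**Figure D2:**
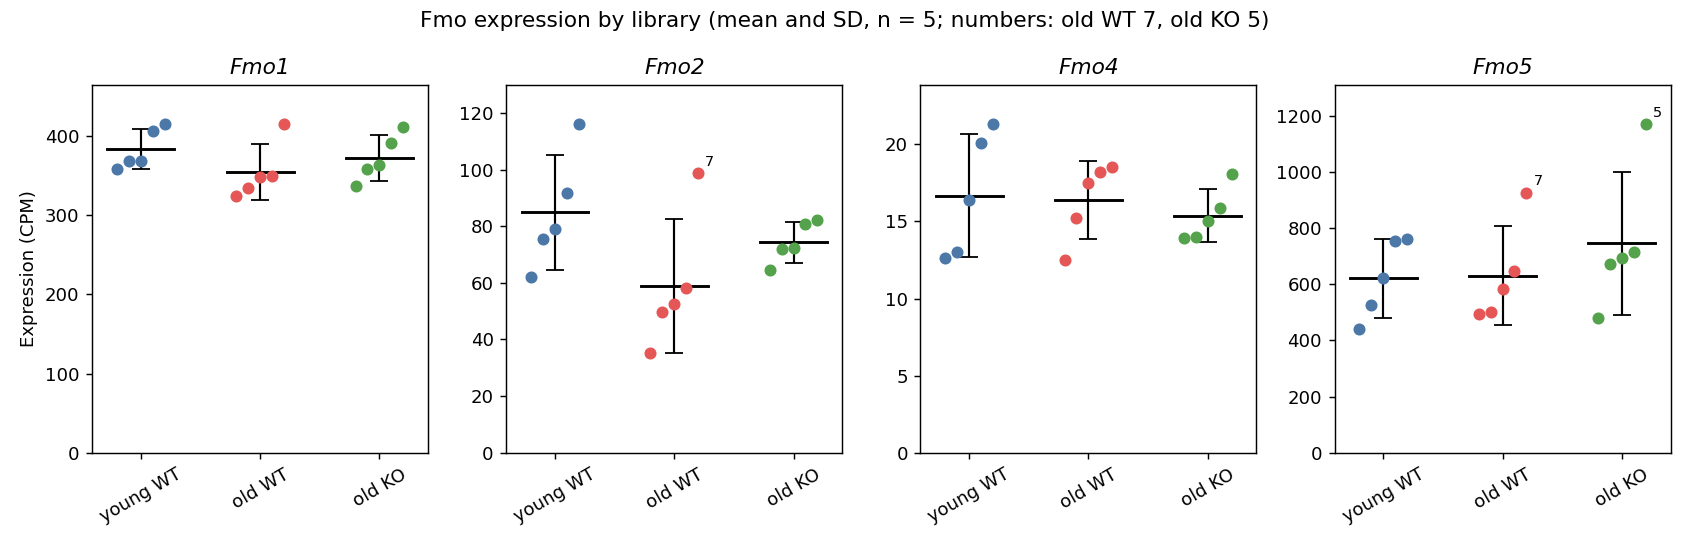
Expression of each member in CPM (linear axes from 0) in young WT, old WT and old KO livers. Points are libraries, black lines the mean and error bars the SD (n = 5), and 7 and 5 mark old WT 7 (Fmo2, Fmo5) and old KO 5 (Fmo5). The groups overlap in every panel, and old WT 7 lies above the other old WT libraries for Fmo2 (98.7 CPM) and Fmo5 (927 CPM).

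Fmo1, the broad-specificity drug oxidase of this family, was the steadiest of the 4. It was at 369, 369, 358, 406 and 415 CPM in young WT 1, 2, 3, 4 and 6. The values of old WT 1, 4, 5, 7 and 10 were 334, 350, 348, 325 and 415 CPM. Those of old KO 1, 2, 4, 5 and 6 were 412, 337, 363, 358 and 391 CPM. The highest of all 15 values was thus only 1.28 times the lowest. In 4 of 5 old WT livers the level lay below all young WT livers, and old WT 10 was level with the highest young WT library. Group means were 383 ± 25.3, 354 ± 35.4 and 372 ± 29.3 CPM (SD, n = 5) in young WT, old WT and old KO. The log2 fold change with age was -0.11 (SE 0.0850, edgeR adjusted p 0.373), and its 95% interval ran from 0.816-fold to 1.05-fold. With genotype it was 0.07 (adjusted p 0.819), with an interval of 0.927-fold to 1.19-fold. These were the narrowest intervals of the 4 members.

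The spread of Fmo1 within groups was also small. Its standard deviation around the group means was 0.12 on the log2 CPM scale, and 13.3% of the 12125 genes with a mean of at least 1 CPM varied less. Among the 1323 genes with a mean of at least 100 CPM, 21.0% varied less than Fmo1 while 89.8% varied less than Fmo5. Fmo5 (0.39) and Fmo2 (0.37) varied more than Fmo1 on this scale, and Fmo4 lay between (0.26).

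Fmo2, which encodes the form prominent in lung, was the member with the largest difference between groups. Its levels in young WT 1, 2, 3, 4 and 6 were 91.8, 116, 78.9, 75.5 and 62.2 CPM. In old WT 1, 4, 5, 7 and 10 they were 49.8, 58.1, 35.3, 98.7 and 52.7 CPM, and in old KO 1, 2, 4, 5 and 6 they were 72.2, 71.8, 64.4, 80.7 and 82.2 CPM. Of the old WT livers, 4 of 5 were below every young WT and every old KO liver, and old WT 7 was above all old KO and 4 of 5 young WT livers. Means were 84.8 ± 20.3, 58.9 ± 23.8 and 74.3 ± 7.29 CPM (SD, n = 5). The log2 fold change of old WT against young WT was -0.53 (SE 0.213), an interval of 0.508-fold to 0.949-fold. It had an unadjusted p of 0.0248 and an adjusted p of 0.0947 in edgeR, and an exact 2-sided permutation test gave p = 0.0952 (n = 5 each).

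Whether Fmo2 passed the threshold with age depended on 1 library. Without old WT 7 the log2 fold change was -0.78, with an edgeR adjusted p of 0.00475. It lay between -0.78 and -0.39 over the 10 fits that each left out 1 library, with adjusted p from 0.00475 to 0.239, and only the fit without old WT 7 passed the threshold. Old KO livers had 1.26 times the Fmo2 level of old WT livers (log2 fold change 0.33, SE 0.213, edgeR adjusted p 0.582), with an interval of 0.922-fold to 1.72-fold, and 0.875 times that of young WT livers (adjusted p 0.543). Old KO was the least variable group for Fmo2, with a coefficient of variation of 9.82% against 40.3% in old WT and 23.9% in young WT. The difference in spread was not tested.

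Fmo4 was the least abundant member. It was at 12.6 to 21.3 CPM in young WT, 12.5 to 18.5 CPM in old WT and 13.9 to 18.1 CPM in old KO. Old KO and old WT libraries lay within the span of the young WT libraries but for old WT 1, which was lowest at 12.5 CPM. The log2 fold change was -0.03 with age (SE 0.150, edgeR adjusted p 0.919) and -0.09 with genotype (SE 0.151, adjusted p 0.880). The intervals ran from 0.787-fold to 1.22-fold with age and from 0.752-fold to 1.17-fold with genotype, so a change by as much as 1.5 times in either direction lay outside both.

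Fmo5, the Baeyer-Villiger oxidase, was the most abundant member and one of the most variable between mice of the same group. Young WT 1, 2, 3, 4 and 6 had 754, 623, 761, 441 and 525 CPM. Levels of 501, 584, 495, 927 and 648 CPM were counted in old WT 1, 4, 5, 7 and 10. Levels of 694, 716, 480, 1170 and 673 CPM were counted in old KO 1, 2, 4, 5 and 6. A single library was above the rest of its group in old WT (replicate 7, next 648 CPM) and in old KO (replicate 5, next 716 CPM). Old KO 5 was 2.44 times old KO 4. Means were 621 ± 141, 631 ± 177 and 747 ± 256 CPM (SD, n = 5) in young WT, old WT and old KO. Neither age (log2 fold change 0.02, SE 0.226, edgeR adjusted p 0.958) nor genotype (0.24, SE 0.226, adjusted p 0.750) gave a difference larger than this spread. The interval for genotype ran from 0.850-fold to 1.65-fold, and without old KO 5 the difference was 0.01 (adjusted p 0.996).

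**Figure D3:**
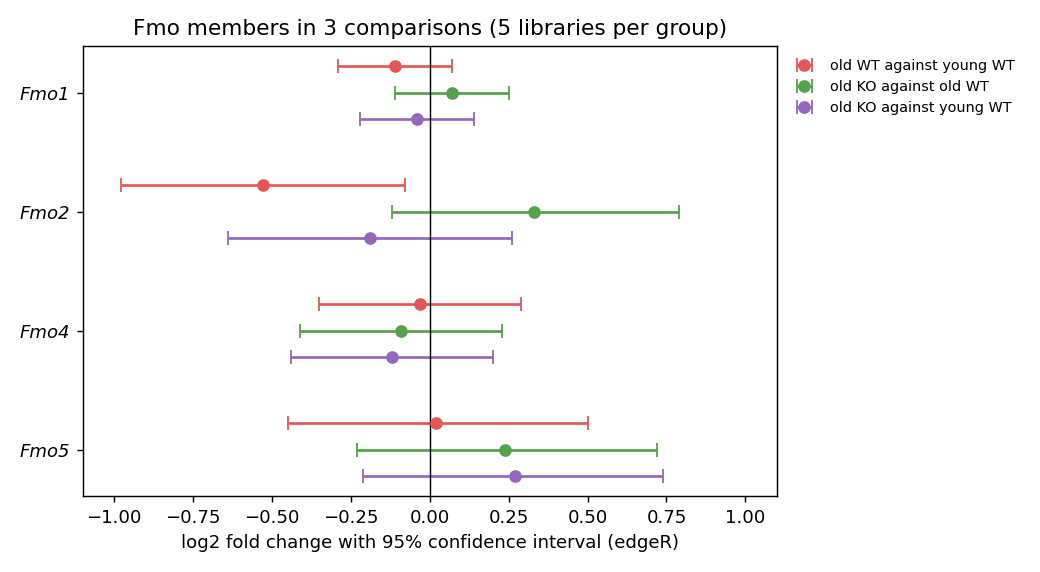
Log2 fold changes of the 4 members (points) with 95% confidence intervals (bars) from edgeR in the 3 comparisons, 5 libraries per group. The interval of Fmo2 with age (-0.98 to -0.08) does not reach 0, although its adjusted p was 0.0947, and the intervals of Fmo1 are the narrowest.

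The libraries highest for Fmo5 in the 2 old groups also had the highest summed hepatocyte markers of their groups. The sum was 132000 CPM in old WT 7 against 83700 to 95200 CPM in the other old WT livers, and 137000 CPM in old KO 5 against 104000 to 118000 CPM in the other old KO livers. Most of the sum was Alb, at 115000 CPM in old WT 7 and 118000 CPM in old KO 5. All 5 markers were highest of their group in old KO 5, whereas in old WT 7 Ttr, at 3170 CPM in an old WT range of 2620 to 3920 CPM, was not. In young WT, replicate 6 had the lowest sum (73200 CPM), the smallest total count and the lowest Fmo2 and Fmo4 of its group. Fmo1 went the other way: it was highest of its group in young WT 6 (415 CPM, against 358 to 406 CPM) and lowest of its group in old WT 7 (325 CPM). The part of these differences in the Fmo values was not tested. Markers of several cell types passed with age, where 18.8% of all tested genes did. Of 5 hepatocyte markers Apoa1 (-0.69, edgeR adjusted p 0.0241) and Cps1 were lower, and of 5 endothelial markers Stab2 and Lyve1 were lower, Stab2 in 11 of 18 alternative fits. Of 5 lymphocyte markers Cd3e, Ms4a1 and Cd8a were higher (edgeR adjusted p 0.0473, 0.0324 and 0.0185). These 3 were at low levels, with old WT means of 0.943, 1.92 and 1.88 CPM. The sum of all 5 was 18.8 to 31.8 CPM in old WT against 6.96 to 20.7 CPM in young WT. Most of it was Ptprc (means 18.1 and 11.7 CPM), which did not pass (edgeR adjusted p 0.166). Of 5 bile duct markers Spp1 (0.98) and of 7 stellate cell and fibroblast markers Col3a1 (1.01) were higher, and none of 6 macrophage markers passed. The calls of Apoa1, the lymphocyte markers, Spp1 and Col3a1 were not followed in the alternative fits. None of the markers other than those of macrophages passed with genotype, and the part of these differences in the Fmo values was not tested. Old WT 7, the highest old WT library for Fmo2, had 114 CPM of summed endothelial markers in an old WT range of 104 to 179 CPM.

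Members were compared with each other over the 15 libraries as a description, since libraries share their groups and scaling. After subtraction of the group means from log2 CPM, the deviations of Fmo2 correlated with those of Fmo5 at r = 0.63 and with those of Fmo4 at r = 0.55 (n = 15 libraries), and Fmo4 with Fmo5 at r = 0.43. Without old WT 7, a choice made after the values were seen, these were 0.46, 0.59 and 0.39. Fmo1, which lies between Fmo4 and Fmo2 on the chromosome, gave r of -0.32, -0.26 and -0.31 against Fmo2, Fmo4 and Fmo5. Without old WT 7 these values of Fmo1 were nearer to zero, at -0.12, -0.21 and -0.17.

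The genes most like each member over the 15 libraries were searched among 12124 genes with a mean of at least 1 CPM. For Fmo2 they were Arg1 (r = 0.90), Slc25a29 (r = 0.90) and Cps1 (r = 0.88). Arg1 encodes arginase, the last enzyme of the urea cycle, Cps1 encodes carbamoyl phosphate synthetase, its entry enzyme, and Slc25a29 encodes a mitochondrial carrier of basic amino acids. The deviations from the group means gave r of 0.85, 0.89 and 0.83. These genes were picked as the highest of 12124 on the same libraries, so high values of either r follow from the choice and support nothing further. Arg1 was at 2160 CPM in old WT 7 and at 900 to 1220 CPM in the other 4 old WT livers, and young WT 6, the lowest young WT library for Fmo2, had 1100 CPM. All 3 passed the threshold with age, with log2 fold changes of -0.73 for Arg1 (edgeR adjusted p 0.0411), -0.79 for Slc25a29 (adjusted p 0.0115) and -1.27 for Cps1 (adjusted p 0.0197). The call of Arg1 was lost in 10 of 18 alternative fits, among them each fit without 1 library but those without young WT 6 and without old WT 7 (range of the log2 fold change -1.02 to -0.63, lowest adjusted p 0.00374). That of Cps1 was lost without old WT 1 or old WT 5 (adjusted p up to 0.0523), and that of Slc25a29 with the replicate block (adjusted p 0.112). None passed with genotype (0.46, 0.61 and 0.58, adjusted p 0.479, 0.216 and 0.539).

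**Figure D4:**
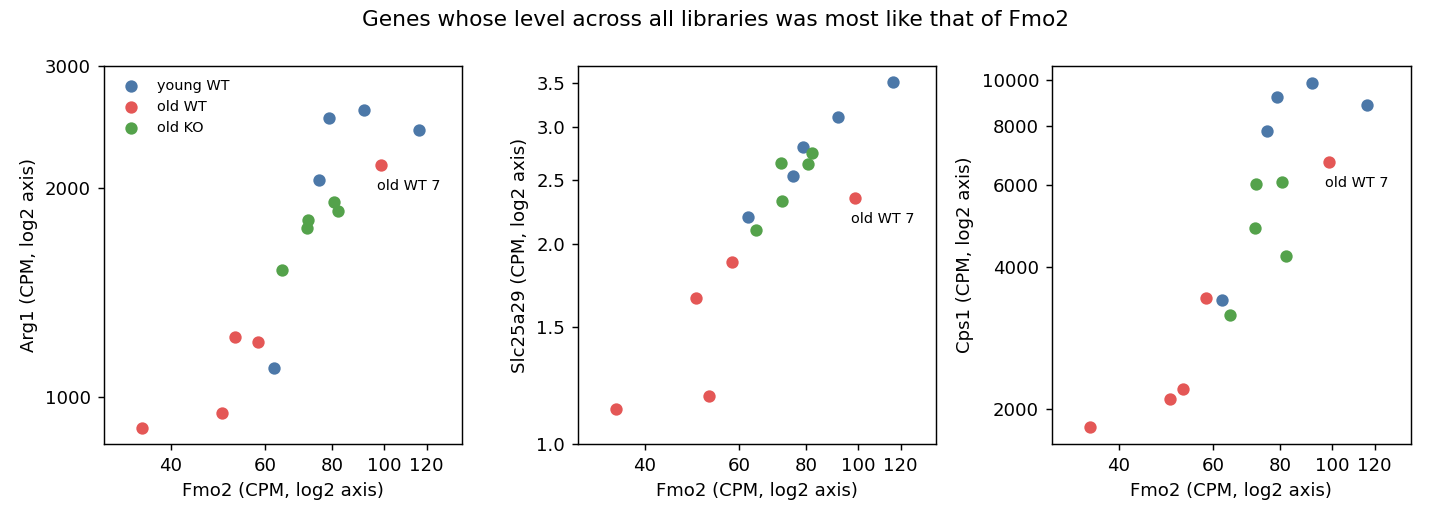
Expression of Arg1, Slc25a29 and Cps1 against that of Fmo2 in CPM (both axes log2) in 15 livers, coloured by group; each point is 1 library. The 4 old WT livers with the lowest Fmo2 (35.3 to 58.1 CPM) are low for all 3 genes, as is young WT 6 for Arg1 (1100 CPM) and Cps1. Old WT 7 lies among the higher livers for Arg1 and Cps1 and in the middle for Slc25a29 (2.35 CPM).

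For the other members the most similar genes had no evident common role. They were Ube2f (r = 0.83), Cpsf2 (r = 0.83) and Srp19 (r = 0.82) for Fmo1, and 4933422H20Rik (r = 0.85), Egf (r = 0.83) and Pqlc2 (r = 0.82) for Fmo4. Those of Fmo5 were the sialidase gene Neu3 (r = 0.87), Gm17565 (r = 0.82) and Hddc2 (r = 0.79). Neu3 was highest in the same 2 old livers as Fmo5, at 11.1 CPM in old WT 7 and 11.2 CPM in old KO 5, and at 2.91 to 7.48 CPM in the other 13 libraries.

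Genes of riboflavin uptake and FAD synthesis and of NADPH supply were listed for the cofactors of these enzymes. Whether the NADPH made by each of them, H6pd included, reaches the monooxygenases was not tested. With age none of the 4 flavin genes (Rfk, Flad1, Slc52a2 and Slc52a3) passed the test. Of 5 NADPH genes, Idh1, the cytosolic isocitrate dehydrogenase, rose by 0.49 (adjusted p 0.0135), and G6pdx, H6pd, Pgd and Me1 did not pass. With genotype none of the 9 passed. The medians of the flavin and NADPH lists with age were -0.01 and 0.12, against 0.01 over all genes tested.

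Cytochrome P450 is the parallel oxidation system of the endoplasmic reticulum membrane. Of 4 genes listed as its electron transfer partners, 3 passed with age, as did 18.8% of all tested genes. Por, the P450 oxidoreductase, fell from 594 ± 178 to 324 ± 75.0 CPM (SD, n = 5) with age (log2 fold change -0.88, SE 0.206, edgeR adjusted p 0.00890). Cyb5b and Cyb5r3, which encode a cytochrome b5 and a cytochrome b5 reductase, rose with age by 0.75 (adjusted p 0.00435) and 0.38 (adjusted p 0.0228). The cytochrome b5 of Cyb5b is the form of the outer mitochondrial membrane. Cyb5a, the gene of the form in the endoplasmic reticulum, did not pass with age (0.21, adjusted p 0.217). In old KO against young WT, Por, Cyb5b and Cyb5r3 kept these directions (-0.78, 0.97 and 0.69), and Cyb5a rose by 0.52 (adjusted p 0.00542). All 4 passed in that comparison, as did 23.3% of all tested genes. With genotype none of the 4 passed. With age the call of Por was lost with the replicate block (adjusted p 0.0548), and that of Cyb5r3 with the block and without young WT 1, young WT 2, old WT 4 or old WT 5 (adjusted p up to 0.148). The difference between the age effects of Por and of Fmo1 was not tested.

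Among 8 genes of other amine, aldehyde and sulfur oxidation, 3 rose with age and none fell (median 0.33), where 9.92% of all tested genes rose. They were Maoa, a monoamine oxidase (0.60, adjusted p 7.52e-04), the aldehyde oxidase gene Aox1 (0.56, adjusted p 0.00427) and Sqrdl, the mitochondrial sulfide oxidase (0.70, adjusted p 0.00406). Sqrdl alone of these 3 lost its call in an alternative fit, with the replicate block (adjusted p 0.0616). None of the 8 passed with genotype. Of 6 genes of taurine synthesis, uptake and use, 5 were tested and none passed with age or with genotype. Cdo1, the cysteine dioxygenase that opens the route to hypotaurine, was at 1890 ± 126 CPM in old WT and 2450 ± 95.1 CPM in old KO (SD, n = 5). The 2 groups of Cdo1 did not overlap, but its log2 fold change of 0.37 had an edgeR adjusted p of 0.131 (0.0108 in DESeq2), and 3.20% of tested genes had ranges that did not overlap in this comparison. Against young WT, Cdo1 was higher in old KO by 0.46 (adjusted p 0.00526).

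Liver Fmo genes are among those known to differ between the sexes in mice, so genes of known sex preference were listed beside them. Of 7 tested female-predominant genes 4 rose with age, with a median of 1.94 (9.92% of all tested genes rose). A1bg rose by 4.61 (adjusted p 0.00237), Hao2 by 4.43 (adjusted p 4.99e-04) and Sult2a1 by 1.94 (adjusted p 0.00480), while Cyp3a44, at 2.42 (adjusted p 0.0486), kept its call in 7 of 18 alternative fits. Of 6 tested male-predominant genes, Cyp2d9 (-3.66), Slco1a1 (-1.81) and Nudt7 (-0.50) fell, with a median of -0.80 over the 6 (8.91% of all tested genes fell). The call of Nudt7 was kept in 9 of 18 fits. None of the 13 passed with genotype. The log2 fold changes of the 4 Fmo members with age lay between -0.53 and 0.02.

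Genes within 500 kb of the members were examined in the same way. Around the chromosome 1 members 7 of 17 annotated genes were tested, and with age Prrc2c fell by 0.50 (adjusted p 5.93e-04) and Dnm3 rose by 0.74 (adjusted p 0.0297, kept in 13 of 18 alternative fits). These 2 of 7 are near the 18.8% of all tested genes that passed with age, and they were named after their values were seen. Around Fmo5 on chromosome 3, 8 of 13 were tested and none passed with age. With genotype none of the 15 tested neighbours passed.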

How the data were processed

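Whole liver RNA of 15 female mice was measured, 5 libraries in each of 3 groups, with groups and replicate numbers read from the sample titles. Per the study's methods, stranded poly(A) libraries were sequenced as 50-bp single-end reads, mapped to mm9 with TopHat (version 2.0.11 in the submitters' processing notes) and summarized by HTSeq. The authors deposited these values as raw counts, 1 column per library, neither normalized nor pooled. The gene annotation and the strand setting of the counting are not given in the sources used here.

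Symbols, positions and exon lengths came from GENCODE M1 on NCBIM37 (37205 of 37991 identifiers), and 82 of 84 list entries matched. Counts were scaled by TMM and filtered with filterByExpr in edgeR 4.0.16 (R 4.3.3), which left 14258 genes. A quasi-likelihood model with group as its term was fitted to all 15 libraries, and p-values were adjusted by Benjamini-Hochberg over all genes tested (threshold 0.05). Log2 CPM used a prior count of 2. Exact permutation tests used log2 of CPM plus 0.1 (252 assignments, smallest 2-sided p 0.00794). DESeq2 1.42.0 and limma 3.58.1 (voom) were alternatives, beside other scalings, filters, sample sets, a replicate block and leaving out each library. The fit was tested on simulated data. Counting error is small for all 4 members, and p-values set the group differences against the spread between mice. Replicates were compared pairwise within groups, and each of the 30 pairs differed by more than counting error (chi-square at least 18.2 times its degrees of freedom).

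The members and the lists were chosen with earlier results of these data known. Named genes are the members, Rps6kb1, genes of the lists and, for each member, the 3 genes with the highest correlation of log2 CPM with it. Prrc2c and Dnm3, neighbours within 500 kb, were named after their values were seen. The alternative fits of named genes other than the members were also added after the data were seen. A related gene on the lists is not reported here.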

Additional observations from a re-analysis of the deposited data

Results flagged for a closer look

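The screen covered 36 of the genes named in the text. In 9 of 108 groups of 5 libraries, 1 library stood farther from its neighbour than Dixon's 95% critical value allows. Chance alone would mark about 1 in 20 groups. For the Fmo members the criterion was met by Fmo1 in old WT 10, which at 415 CPM lay above the other 4 old WT livers (325 to 350 CPM). Arg1, the gene most like Fmo2, was marked in old WT 7 (2160 CPM against 900 to 1220 CPM), where Fmo2 itself (98.7 CPM) was high but not marked. Fmo5 in old WT 7 (927 CPM) and in old KO 5 (1170 CPM) was also high but not marked. A1bg was marked in old WT 10 (5090 CPM) and in young WT 6 (278 CPM), and Hao2 in young WT 6 (10.3 CPM). Cyb5r3 in old KO 6 (215 CPM) and Cdo1 in old WT 1 (1670 CPM) were each the lowest of their group. Lyve1, an endothelial marker, was highest in old WT 7 (11.7 CPM) and in old KO 4 (11.1 CPM). Other genes named in the text were not screened. Among them G6pdx was at 5.65 CPM in old KO 1 and at 3.81 to 3.96 CPM in the other old KO livers.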

How the results depend on the processing

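Of 216 recomputed log2 fold changes of the 4 members in 3 comparisons, 208 kept their direction and their side of the threshold. The exceptions all concerned age. Fmo2 passed without old WT 7 (-0.78), which moved the count of members called from 0 to 1 (0 to 1 over the fits that left out a library; 0 throughout for the other comparisons). Fmo5, at 0.02, turned to -0.24 with the replicate block and to between -0.15 and 0.12 without single libraries (-0.09 without young WT 4, -0.02 without young WT 6, -0.15 without old WT 7). Fmo4, at -0.03, ranged from -0.12 to 0.08 (0.08 without young WT 1, 0.05 without young WT 2, 0.06 without old WT 1). None of these reversals was near the threshold, and the cause was not tested.

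The count of all genes called with genotype, 76, was 309 under DESeq2, 23 under limma voom, 6 with the replicate block and 9 (without old WT 4) to 83 when a library was left out. Leaving out old WT 1, old WT 7 or old WT 10 gave 10, 37 and 42, and leaving out old KO 2, 4, 5 or 6 gave 13, 14, 17 and 13. With age, 2685 became 899 with the replicate block and 1748 (without young WT 1) to 3284. Between old KO and young WT it was 2460 to 3829 over the fits without 1 library, against 3319. The labels give groups some of the same replicate numbers, but same-numbered mice did not deviate together (r of -0.15 to 0.08 over genes). These r gave no sign of a pairing, but so few shared numbers cannot show that there was none. The replicate block changed no call of a member. Other scalings shifted the comparisons by at most 0.02 in either direction.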
